A study of Mus musculus with 8 samples.

Results

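*Flrt3*, *Scin*, *Ramp3*, *Htr7*, *Gnb4*, *Ndnf* and *Nrg1* are 7 of the genes with the largest rise in splenic dendritic cells (DCs) that lack the kinase Lkb1. They were chosen by the size of that rise, out of 22180 genes that the array annotation gives a single symbol. Each has 1 probe set on the array. The difference between Lkb1-deficient and WT DCs therefore selected them, and it is given here as a description without a test. The rule for the choice did not use the LPS and Control arrays, though it was made with earlier results of these data known.

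RNA from sorted splenic DCs of 8-week-old mice on a C57BL/6 background was measured on 8 Affymetrix Mouse Gene 2.0 ST arrays. WT DCs came from *Lkb1*f/f mice (3 arrays), which carry the floxed gene without Cre, and Lkb1-deficient DCs, abbreviated KO, came from *Cd11cCreLkb1*f/f mice (3 arrays), which carry the same floxed gene and Cre. Wild-type C57BL/6 mice without treatment gave the Control array, and wild-type C57BL/6 mice given LPS, the endotoxin of Gram-negative bacteria, overnight gave the LPS array. These genotypes are those of the sample labels; a legend of the study instead calls the LPS-treated mice *Lkb1*f/f. The *Cd11c* promoter that drives Cre is not specific to DCs, being active in some macrophages too, and the sources used here do not state the LPS dose of these arrays or how many mice went into an array.

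Values are deposited log2 signals, so a difference of 1 is a doubling. Array medians differed by replicate number, at 4.64, 4.09 and 3.40 on WT arrays 1, 2 and 3 and 4.59, 4.07 and 3.35 on KO arrays 1, 2 and 3, while Control and LPS both had 4.14. KO and WT arrays with the same number lay close in level, so each KO array was set against the WT array with its number. Of 15 measured DC markers, *H2-Ab1*, which encodes a chain of the MHC class II molecule, had a mean log2 value of 12.31 in WT DCs, and *Flt3*, the DC growth factor receptor, had 9.52. *Stk11*, which encodes Lkb1, differed by −0.05, −0.43 and −0.41 between KO and WT arrays 1, 2 and 3, and it is not stated if its probes cover the exons that Cre removes. In sorted cells, fewer cells of a type and less RNA per cell cannot be told apart.

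Lkb1 is a serine-threonine kinase that switches on AMP-activated protein kinase and its relatives, among them the salt-inducible kinases, which hold back the cofactors of the transcription factor CREB. The 7 genes come from several protein families with roles at the cell surface and in signalling. *Flrt3* encodes a transmembrane protein with leucine-rich repeats that binds latrophilins and Unc5 receptors on other cells. *Nrg1* and *Ndnf* encode ligands: neuregulin 1, which activates ErbB receptors, and a secreted neurotrophic factor. *Ramp3* encodes a partner that steers calcitonin-receptor-like receptors to bind adrenomedullin, *Htr7* a serotonin receptor that couples to Gs and raises cAMP, *Gnb4* a beta subunit of heterotrimeric G proteins, and *Scin* scinderin, an actin-severing protein of the gelsolin family.

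Promoter windows from RefSeq (GRCm38.p6), 250 bases before to 50 bases after an annotated start, were found for *Flrt3*, *Scin*, *Ramp3* and *Htr7*. Those of the 3 genes with the largest rise are printed 5′ to 3′ on the gene's strand, to show the sequence upstream of the strongest responders side by side. They lie at chr2:140671427-140671726 (minus strand) for *Flrt3*, chr12:40134179-40134478 (minus strand) for *Scin* and chr11:6658283-6658582 (plus strand) for *Ramp3*, and capitals mark matches to any of the motifs searched.
Flrt3: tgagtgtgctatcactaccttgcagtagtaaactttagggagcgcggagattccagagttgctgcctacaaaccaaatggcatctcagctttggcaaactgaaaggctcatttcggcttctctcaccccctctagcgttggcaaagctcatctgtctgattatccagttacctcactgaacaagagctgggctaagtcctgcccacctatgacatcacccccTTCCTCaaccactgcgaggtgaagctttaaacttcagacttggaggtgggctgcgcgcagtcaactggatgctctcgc
Scin: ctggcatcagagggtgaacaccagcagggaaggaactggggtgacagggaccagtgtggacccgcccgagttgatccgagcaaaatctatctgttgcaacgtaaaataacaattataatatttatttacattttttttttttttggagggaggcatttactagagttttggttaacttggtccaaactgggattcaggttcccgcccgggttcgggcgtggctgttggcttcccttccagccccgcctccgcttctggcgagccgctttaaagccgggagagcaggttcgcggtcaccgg
Ramp3: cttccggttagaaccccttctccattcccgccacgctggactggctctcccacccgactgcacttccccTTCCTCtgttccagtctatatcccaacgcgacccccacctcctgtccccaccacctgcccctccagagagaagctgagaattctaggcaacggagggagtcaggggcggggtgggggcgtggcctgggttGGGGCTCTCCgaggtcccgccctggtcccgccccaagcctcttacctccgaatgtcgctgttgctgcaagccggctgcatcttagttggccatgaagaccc

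The motifs, searched on both strands, were the full CRE of CREB (TGACGTCA), the shorter CRE core it contains (TGACG), the AP-1 site (TGANTCA), the ISRE core (GAAANNGAA), the core bound by the myeloid factor PU.1 (GAGGAA) and the κB site by its name. The full CRE, the AP-1 site and the ISRE core were in none of the 4 windows, against 1.79%, 7.81% and 8.56% of all 32851 windows. The PU.1 core was in the windows of *Flrt3* and *Ramp3* (28.3% of all windows), the κB site in that of *Ramp3* (8.46%) and the CRE core in that of *Htr7* (20.8%). No motif was shared by more than 2 of the 4 genes. The share of G and C was 51.3% for *Flrt3*, 52.0% for *Scin*, 63.7% for *Ramp3* and 81.0% for *Htr7*, against a median of 52.7%, so the windows were not alike in composition. The *Htr7* start lies 773 bases and the *Ramp3* start 27 bases inside the annotated gene's outer end, so another start is annotated for each.

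In Lkb1-deficient DCs the 7 genes were 5.11- to 14.6-fold higher than in WT DCs on average, and each was higher in every pair of equally numbered arrays. On the log2 scale the lowest KO array lay above the highest WT array for 7 of 7, against 0.38% of all 41345 probe sets. The choice of the genes fixes this count, and nothing is read from it. By mean difference they ranked 1, 2, 3, 6, 8, 10 and 11 among genes with a single symbol. *Mmp25*, a membrane-anchored matrix metalloproteinase, *Nrp2*, a semaphorin receptor, *Tnfsf4*, which encodes OX40L, and *Ccl22*, a chemokine, lay between them. *Gnb4*, the lowest of the 7, differed by 2.35, and the next genes below it were *Efnb2*, an ephrin, at 2.35, *Socs2*, a feedback inhibitor of cytokine signalling, at 2.30 and *Gprc5a*, an orphan receptor, at 2.26.

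**Figure D1:**
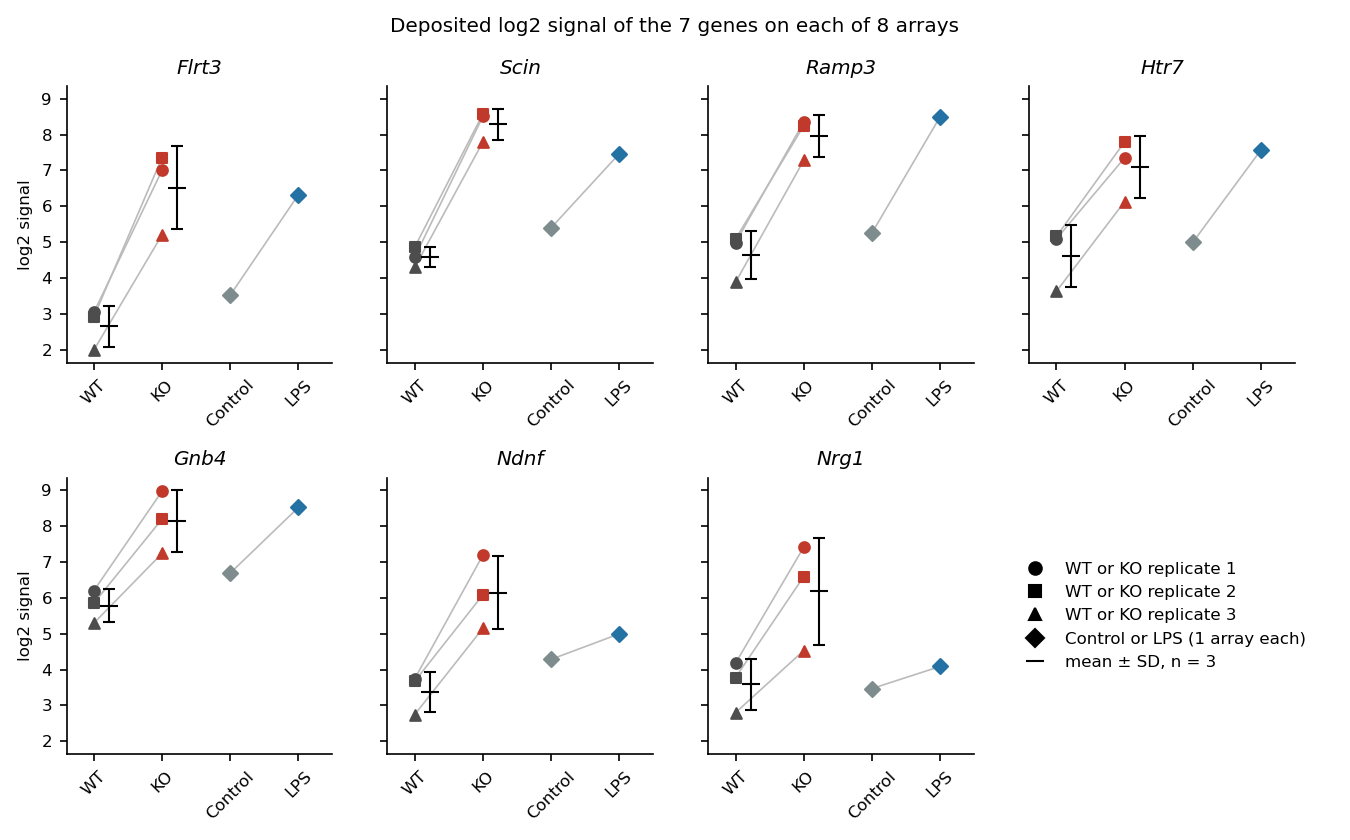
Deposited log2 signal (vertical axis) of each of the 7 genes on the 3 WT, 3 KO, 1 Control and 1 LPS array. Marker shape gives the replicate number, grey lines join arrays set against each other, and black bars are the mean ± SD of 3 arrays; for each gene the 3 KO arrays lie above the 3 WT arrays and the LPS array lies above the Control array.

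*Flrt3* had the largest difference. Its log2 value was 3.04, 2.92 and 1.99 on WT arrays 1, 2 and 3 and 7.0, 7.36 and 5.21 on KO arrays 1, 2 and 3. The groups did not overlap, and replicate 3 was the lowest in both. The difference within pairs was 3.96, 4.43 and 3.21, a mean of 3.87 ± 0.62 (SD, n = 3). On every WT array this adhesion gene lay below the array median, by 1.60, 1.17 and 1.41, so its fold change starts from a dim signal. After 16 was added to each signal before the log, the difference was 2.30, below those of *Scin* (3.04) and *Ramp3* (2.67), so *Flrt3* was no longer the largest.

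*Scin* had WT values of 4.58, 4.86 and 4.30 and KO values of 8.51, 8.58 and 7.79. The 3 pair differences of this actin regulator were close to each other, at 3.92, 3.72 and 3.49 (mean 3.71 ± 0.21, SD, n = 3). *Scin* was 13.1-fold higher in KO on average, and the gap between its lowest KO and highest WT array, 2.93, was the widest of the 7 genes.

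Among genes for receptors, their partners and G proteins, *Ramp3* had WT values of 4.99, 5.09 and 3.88 and KO values of 8.35, 8.25 and 7.28. Its pair differences of 3.36, 3.16 and 3.40 (mean 3.31 ± 0.13, SD, n = 3) had the smallest spread of the 7 genes. *Htr7* had 5.09, 5.16 and 3.63 in WT and 7.35, 7.80 and 6.13 in KO. Both *Ramp3* and *Htr7* were lower on the arrays of replicate 3 by more than 0.9 in WT and KO alike, and setting KO against WT within a number removed most of this spread. For *Htr7* the pair differences were 2.26, 2.64 and 2.50 (mean 2.47 ± 0.19, SD, n = 3). *Gnb4* had WT values of 6.20, 5.85 and 5.30 and KO values of 8.97, 8.19 and 7.24. The difference for this G protein subunit was 2.77, 2.34 and 1.94 in pairs 1, 2 and 3 (mean 2.35 ± 0.41, SD, n = 3).

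The ligand genes varied more than *Scin*, *Ramp3*, *Htr7* and *Gnb4*. *Ndnf* had WT values of 3.74, 3.67 and 2.74 and KO values of 7.19, 6.08 and 5.15. Its pair difference was 3.45 in pair 1 and 2.41 in pairs 2 and 3 (mean 2.75 ± 0.60, SD, n = 3), so pair 1 stood about 1 above the others. *Nrg1* had WT values of 4.18, 3.78 and 2.80 and KO values of 7.41, 6.59 and 4.53. Its pair differences of 3.23, 2.81 and 1.73 (mean 2.59 ± 0.77, SD, n = 3) had the largest spread of the 7 genes, and its lowest KO array lay only 0.35 above its highest WT array. On all 3 WT arrays both ligand genes lay below the array median, by 0.42 to 0.90 for *Ndnf* and by 0.31 to 0.60 for *Nrg1*.

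Over the 7 genes, replicate 3 was the lowest array in WT and in KO for 7 of 7, as in the array medians. Pair 3 also gave the smallest difference for 5 of 7, all but *Ramp3* and *Htr7*. The median difference of the 7 genes was 3.36, 2.81 and 2.50 in pairs 1, 2 and 3, and that of all probe sets was −0.03, 0.00 and 0.00, so whole arrays did not shift with the 7 genes. Replicate 3 also stood apart in neutrophil markers. The 8 measured had a mean log2 level of 4.91, 3.80 and 7.90 on WT arrays 1, 2 and 3 and 5.21, 4.16 and 7.70 on KO arrays 1, 2 and 3. *S100a8*, which encodes a calcium-binding protein abundant in neutrophils, had 6.89, 3.98 and 10.16 on the WT arrays. Without pair 3 the mean difference of the 7 genes ran from 2.45 for *Htr7* to 4.20 for *Flrt3*.

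The LPS and Control arrays asked whether the same genes stand higher in DCs after LPS. *Flrt3* had 3.52 without LPS and 6.32 with it (6.97-fold), and *Ramp3* had 5.25 and 8.50 (9.47-fold). *Htr7* had 4.99 and 7.57 (5.96-fold), *Scin* 5.40 and 7.46 (4.19-fold) and *Gnb4* 6.69 and 8.52 (3.56-fold). The ligand genes differed least, with 4.28 and 4.99 for *Ndnf* (1.64-fold) and 3.47 and 4.09 for *Nrg1* (1.53-fold). All 7 genes were at least 1.5-fold higher on the LPS array, against 3.63% of the 33649 probe sets with a value on both arrays, of which 3.95% were at least 1.5-fold lower. With 1 array a condition there is no replicate check and no p.

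Of those probe sets, 54.2% had the same value to the last digit on both arrays, and none of the 7 genes did. Among the 15400 probe sets whose values differed, 7.94% were at least 1.5-fold higher. Among the 17863 whose mean in WT DCs lay in the range of the 7 genes, 2.55% were. At 2-fold, 5 of the 7 genes were higher, against 1.63% of all probe sets, and *Ndnf* and *Nrg1* were not. Both also fell under 1.5-fold once 16 was added to each signal before the log, at log2 differences of 0.43 and 0.28, whereas the other 5 genes had 1.69 to 2.80.

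Set beside each other, the log2 difference of *Ramp3* was 3.24 on LPS and 3.16 to 3.40 in the KO pairs, and that of *Htr7* was 2.58 and 2.26 to 2.64. For the other 5 genes the LPS difference lay below each of the 3 KO pair differences. That of *Gnb4* was 1.83 against a lowest pair of 1.94, that of *Flrt3* 2.80 against 3.21, and that of *Scin* 2.07 against 3.49. *Nrg1* had 0.62 against 1.73, and *Ndnf* 0.71 against 2.41. The single LPS array allows no test of these differences. A smaller difference was not always a lower level. By deposited level, the LPS array lay within the range of the 3 KO arrays for *Flrt3*, *Htr7* and *Gnb4*. It lay above that range for *Ramp3* and below it for *Scin*, *Ndnf* and *Nrg1*. The LPS and KO comparisons share no array, and Control lay within the range of the 3 WT arrays for *Htr7* and *Nrg1* and above it for the other 5 genes. These are deposited levels, and array medians differ. Relative to its array median, *Nrg1* was at −0.67 on Control, below −0.46, −0.31 and −0.60 on WT arrays 1, 2 and 3. The other genes kept their place.

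**Figure D2:**
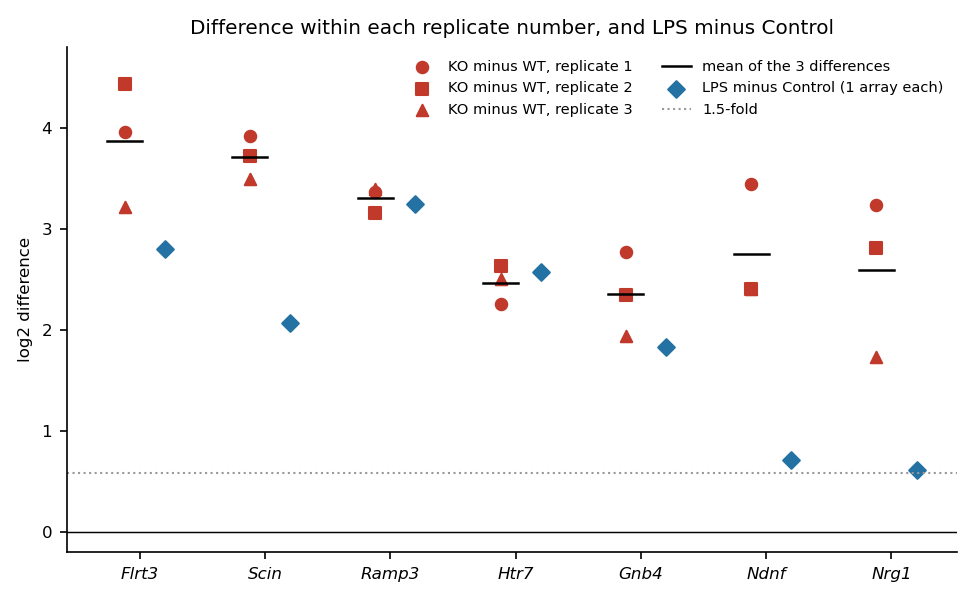
Log2 difference (vertical axis) of the 7 genes, with red points for KO minus WT within replicates 1, 2 and 3, black bars for their mean and blue diamonds for LPS minus Control on 1 array each. The diamonds of *Ramp3* and *Htr7* lie within the spread of their red points, and those of *Ndnf* and *Nrg1* lie just above the dotted line of 1.5-fold; replicates 2 and 3 of *Ndnf* overlap at 2.41.

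A joint rise was not particular to the 7 genes. At least 2-fold higher in each of the 3 KO pairs were 113 probe sets (0.273% of all). By gene, with the brightest probe set of each single symbol, these were 101 genes, of which 94 were not among the 7, and 73 of those 94 (77.7%) were at least 1.5-fold higher on the LPS array and 1 was at least 1.5-fold lower. Their median log2 difference on LPS was 1.30, and that of the 7 genes was 2.07. These 94 genes were also taken by their rise in KO, so the share is a description.

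**Figure D3:**
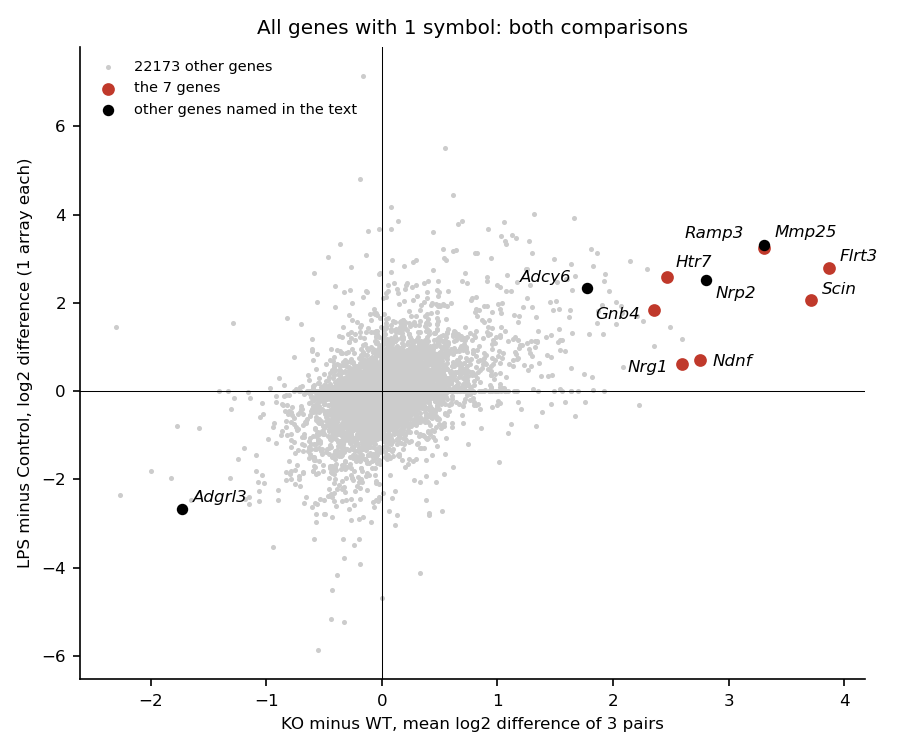
Mean log2 difference of the 3 KO pairs (horizontal axis) against the log2 difference of LPS minus Control on 1 array each (vertical axis) for every gene with a single symbol. The 7 genes (red) lie at 2.35 or more on the horizontal axis and above 0 on the vertical axis, and of the other genes marked (black) *Adgrl3* is below 0 on both axes.

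The genes whose pattern was most like the mean of the 7 were sought by Pearson correlation over the 8 arrays, after each array was centred on its median. Among 22173 other genes the closest were *Nrp2* (r = 0.99), *Mmp25* (r = 0.98), *Serpinb6b* (r = 0.98), *Nek6* (r = 0.98), *Tnfrsf4* (r = 0.98), *Slc22a23* (r = 0.98), *Vwa5a* (r = 0.98) and *Efnb2* (r = 0.97). *Nek6*, which encodes a mitotic kinase, followed the pattern with small steps, at 0.71 in KO and 0.63 on LPS. *Nrp2* had 2.80 and 2.53, and *Mmp25* 3.31 and 3.30. Among the 7 genes themselves, r ran from 0.74 to 0.98 over the 21 pairs of genes, with a median of 0.93. The 8 points share the step from WT to KO that chose the genes, so these values only describe likeness.

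The families and receptor systems of the 7 genes were examined with 103 measured genes that are not among them, of 110 listed. Limma without pairing called 0 of them at an adjusted p under 0.05 over all probe sets, where it called 0.00967% of probe sets higher and 0% lower. Without adjustment, at p under 0.05, it gave 2 higher and 1 lower, against 0.3% and 0.0605% of probe sets. The methods' t-test called 0 of the genes at an adjusted p under 0.05, and 0 probe sets. It gave 0 genes at an unadjusted p under 0.05, so 0 at 1.5-fold as well, where 0.164% of probe sets were higher. Once replicate number entered as a block, limma called 1 higher and 1 lower, where 0.206% and 0.0242% of all probe sets passed, and without adjustment it gave 9 higher and 7 lower, against 5.21% and 6.22% of probe sets. The median log2 difference of the 103 genes was −0.02, as for all probe sets (−0.02). On LPS, 6 of the 103 were at least 1.5-fold higher and 7 lower, against 3.63% and 3.95% of probe sets. Their median was 0.00, as for all probe sets, of which 54.2% had equal values on both arrays.

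The gene that fell with the block was *Adgrl3*, which encodes latrophilin 3, a receptor that binds FLRT3. Its log2 value was 8.63, 7.97 and 6.16 on WT arrays 1, 2 and 3 and 6.79, 6.21 and 4.57 on KO arrays 1, 2 and 3. Because the arrays of a number share their level, the groups overlapped although each KO array was lower than its WT partner, by 1.84, 1.76 and 1.58. The mean difference of −1.73 had a standard error of 0.11 with the block (limma, adjusted p = 0.0305) and 0.63 without it (limma, adjusted p = 1), and the adjusted p ran from 0.0173 to 1 over 13 alternatives. On the Control and LPS arrays it had 6.22 and 3.55, so *Adgrl3* was lower and *Flrt3* higher in both comparisons. Without KO replicate 3 the difference of group means was −1.08, and without WT replicate 3 it was −2.44. Both leave an array without its partner, so they also hold the level difference between replicate numbers. The other measured FLRT partners included *Fgfr1*, a growth factor receptor, at 0.43, 0.57 and 1.01 in pairs 1, 2 and 3, and *Unc5a*, a netrin receptor, at 0.10, −0.38 and −0.31, and neither passed.

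The gene that rose with the block was *Adcy6*, which encodes an adenylyl cyclase, the type of enzyme that makes cAMP when a Gs-coupled receptor such as that of *Htr7* is active. It is named here because it passed, and it is also in the list of DC maturation and migration markers described below. Its log2 value was 7.18, 5.50 and 5.06 on WT arrays 1, 2 and 3 and 9.13, 7.20 and 6.73 on KO arrays 1, 2 and 3, again with overlapping groups and a rise in each pair (1.96, 1.69 and 1.67). The mean of 1.77 had a standard error of 0.11 with the block (limma, adjusted p = 0.0305, and 1 without it), and the adjusted p ran from 0.0170 to 1 over 13 alternatives. On LPS it was 5.06-fold higher, at 6.70 on Control and 9.04 on LPS. Without KO replicate 1 the difference of group means was 1.05, which no longer sets each WT array against a KO partner. *Adcy7*, another cyclase, had −0.26, −0.42 and −0.35 in pairs 1, 2 and 3, and the protein kinase A subunits *Prkar1a* and *Prkacb* had 0.45, 0.20 and 0.28 and −0.26, −0.33 and −0.14, and none of the 3 passed.

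No relative of *Ramp3*, *Htr7*, *Gnb4* or *Scin* passed either fit. *Calcrl*, the receptor that RAMP proteins accompany, differed by −0.25, −0.39 and 0.22 in pairs 1, 2 and 3 and was 0.92 lower on the LPS array. *Ramp1*, the partner for calcitonin gene-related peptide, differed by −0.44, −0.31 and −0.26 and by −0.74 on LPS, so both lay opposite to *Ramp3* on LPS. *Ackr3*, a scavenger receptor, had 0.45, 0.32 and −0.35. Of 17 genes for serotonin receptors and serotonin handling, 0 reached an unadjusted p of 0.05 in limma with or without the block or in the methods' t-test, and *Htr5a*, *Htr6* and *Htr1d* had pair differences between −0.24 and 0.20. None of the 17 moved by 1.5-fold on LPS, but most had equal values on Control and LPS, *Htr5a*, *Htr6* and *Htr1d* among them. *Gnb1*, the other G protein beta gene named here, had 0.32, 0.30 and 0.21, *Gng5* −0.07, 0.06 and 0.31, and *Gng10* −0.24, −0.06 and 0.20. In the gelsolin family, *Gsn*, gelsolin itself, had −0.31, −0.28 and −0.12 and was 2.57 lower on the LPS array, where *Scin* was 2.07 higher. *Flii* had 0.41, −0.03 and 0.24, and *Svil* 0.06, 0.45 and 0.15.

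For the ligand genes, *Adam10* and *Adam17*, sheddases that cleave neuregulins and related ligands, and *Bace1*, a neuregulin protease, had pair differences between −0.25 and 0.21. *Egf*, epidermal growth factor, singled out here after its values were seen, was higher by 2.58, 1.67 and 1.47 in pairs 1, 2 and 3 and by 1.94 on LPS, without passing (with the block, limma's adjusted p = 0.0890). Genes for the ErbB receptors of neuregulins are named for their link to *Nrg1* and not by their level. In pairs 1, 2 and 3, *Erbb2* had −0.47, −0.24 and −0.32, lower in each. *Erbb3* had 0.93, 0.06 and −0.05 and *Erbb4* 0.04, −0.01 and 0.09, and none of these receptor genes passed. Among FGF receptors and proteins grouped with *Ndnf*, *Fn1*, fibronectin, had −0.18, −0.16 and 0.36 and *Fgfr3* 0.21, 1.00 and 0.22, and neither passed.

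**Figure D4:**
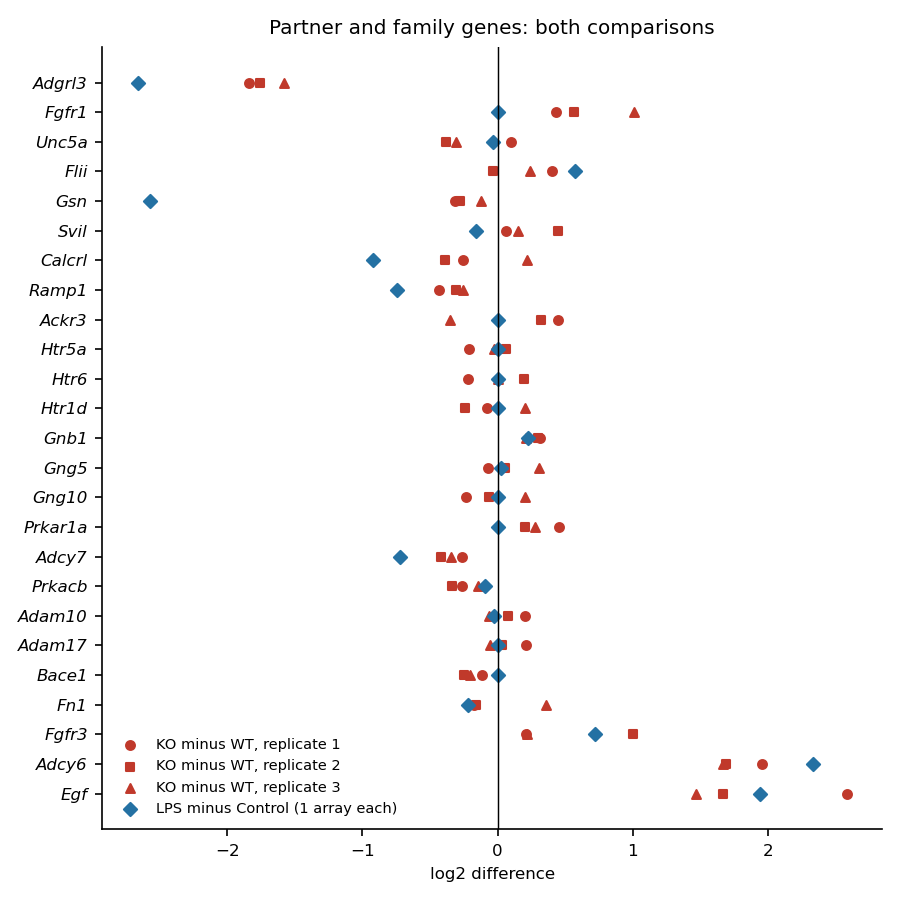
Log2 difference (horizontal axis) of partner and family genes of the 7, by KO minus WT within replicates 1, 2 and 3 (red) and LPS minus Control on 1 array each (blue diamonds). *Adgrl3* is below −1.5 and *Adcy6* above 1.6 in all 3 pairs, and most other genes lie within 0.6 of 0 in the KO pairs.

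Markers of DC maturation and migration moved with the 7 genes. The list was chosen with earlier results of these data known. It holds *Ccl22*, *Socs2*, *Tnfrsf4* and *Adcy6*, named above for their rise or likeness, so its counts are a description. Of 23 measured, 22 were higher in each of the 3 KO pairs (13.3% of all probe sets were), and their mean log2 level was 6.67 to 8.26 on WT arrays and 7.83 to 9.35 on KO arrays. Limma called 9 of them higher with the block (0.206% of probe sets) and 0 without it (0.00967%), where 10 were higher before adjustment (0.3%). The median difference of the list was 0.92 in KO and 0.94 on LPS, where 16 of the 23 were at least 1.5-fold higher (3.63% of probe sets) and 1 lower (3.95%). *Ccr7*, the receptor that guides DCs to lymph nodes, was higher by 0.51, 1.06 and 1.29 in pairs 1, 2 and 3 and by 1.44 on LPS, *Tmem123* by 0.75, 0.74 and 0.88 and by 0.94, and *Cd80*, a costimulatory molecule, by 0.26, 0.29 and 0.44 and by 1.84, and none of the 3 passed with or without the block. The part of maturing cells in the rise of the 7 genes was not tested.

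DC markers had a median difference of −0.08 in KO. On LPS, 9 of 15 were at least 1.5-fold lower (3.95% of probe sets) and 0 higher (3.63%), with a list median of −1.05. Markers of other cells were present too. The 8 measured B cell markers had a mean level of 6.60 to 8.37 on WT arrays and 6.03 to 8.09 on KO arrays, a median difference of −0.26, and a mean of 6.12 on Control and 5.31 on LPS. Those of macrophages and monocytes, all 12 measured, had 8.42 to 9.17 on WT and 8.15 to 9.18 on KO arrays. For endothelial cells (9 measured) the mean level was 4.15 to 5.43 on WT and 4.09 to 5.32 on KO arrays, and for stromal cells (8 measured) 2.99 to 4.08 and 2.92 to 4.08. The median differences of these last 3 lists were −0.06, −0.13 and −0.04 in KO and −0.62, 0.00 and 0.00 on LPS. Lists for plasmacytoid DCs, T cells, NK cells, neutrophils and erythroid cells had medians of 0.22, 0.08, −0.43, 0.16 and 0.22 in KO and −0.11, 0.00, 0.22, 0.00 and 0.13 on LPS. In the plasmacytoid list, 4 of 7 were higher in each pair (13.3% of probe sets) and 1 was called with the block (0.206%). This was *Cox6a2*, named because it passed, higher by 1.83, 1.86 and 1.38 (limma, adjusted p = 0.0334, and 1 without the block). It was listed at the same value on Control and LPS. The part of other cells in the rise of the 7 genes was not tested.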

How the data were processed

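Splenic DC RNA was read on Affymetrix arrays. For each array the authors deposited log2 values by probe set; the methods name GeneSpring and the submitters' notes MAS5, without the summarisation or normalization. Nothing was renormalized or filtered for dim signal. Differences are of log2 values. Symbols came from the array annotation. The methods name an unpaired t-test, so the main fit was limma 3.58.1 (R 4.3.3) on the 3 WT and 3 KO arrays without pairing, Benjamini-Hochberg adjusted over 41345 probe sets. It pooled the spread fully, giving every probe set a standard error of 0.63. Deviations from the genotype means of WT and KO arrays that carry the same title number correlated at 0.85, 0.80 and 0.74, above the threshold of 0.1, so limma with the number as a block is given where it changes a call; no label says that mice were paired. Nothing says that arrays are separate mice, so p-values measure the spread between arrays. The fits were tested on simulated data. For the fit without pairing these held no effect of replicate number and no difference in array level, so they do not speak to those. Members and lists were chosen with earlier results of these data known. Named genes were the 7, the 3 genes with the highest mean value in each family and marker list described, neighbours in rank, and the 8 genes most alike. The number of arrays limits the precision.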

Additional observations from a re-analysis of the deposited data

How the results depend on the processing

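The KO difference chose the 7 genes, so its persistence supports nothing. As a description, it ran from 1.71 to 4.53 over the 84 alternatives that changed its value (centring on array medians, quantile normalization, 16 added before the log, and 1 array or 1 pair left out), and from 1.93 to 4.53 with 1 array left out. On LPS, quantile normalization and 16 added changed the values; 12 of these 14 stayed at 1.5-fold or more, all but *Ndnf* and *Nrg1* with 16 added. The share of probe sets at least 1.5-fold higher on LPS was 3.63%, or 7.94% among unequal values, 6.56% above the median level and 1.63% at 2-fold. Limma's count of 4 probe sets became 95 with the replicate block, 134 with the block on centred arrays (an alternative chosen after the data were seen), 2 after quantile normalization, 0 on centred arrays, 0 with 16 added and 0 by the methods' t-test. It ran from 0 to 10 when 1 array was left out: 2, 0 and 10 without KO replicates 1, 2 and 3. The count of family genes, 0, became 2 with the block, on centred arrays as well, and was 0 in every leave-one-out fit. The cause was not tested.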
